A study of Caenorhabditis elegans with 36 samples.

Results

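The libraries described here cover the young adult window of a small RNA time course in Caenorhabditis elegans, in which ebax-1(tm2321) mutants were compared with wild type. They were chosen by strain and hour from the sample labels, as WT at 36, 37, 38 and 39 h and ebax-1(tm2321) at 39, 40, 41 and 42 h, which is 8 of 36 libraries, 4 a strain. Each mutant library was paired with the WT library collected 3 h earlier, and the pairs are called aligned 36 to 39 h. This pairing follows the slower vulva development of mutant animals staged in parallel. All 437 annotated miRNA strands in the count table were considered. WT was strain N2, and the mutant was strain HW3527, which carries ebax-1(tm2321) on chromosome IV. Both strains were plated as synchronized first-stage larvae at 2000 worms a plate, were kept at 25 °C and received no treatment.

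EBAX-1 is the worm counterpart of mammalian ZSWIM8, the receptor subunit of a Cullin-RING ubiquitin ligase. In target-directed miRNA degradation as known from mammals and flies, a target RNA pairs with both ends of a miRNA. It marks the Argonaute protein that holds the miRNA, the ligase directs the protein to the proteasome, and the released miRNA is lost. According to the study, no such target RNA has been defined in worms, and decay of miR-35 there relies on its seed only. A miRNA hairpin is cut into a 5p and a 3p strand, of which usually one, the guide, is kept by Argonaute while the other, the passenger, is discarded. Because both strands come from one precursor, loss of a decay pathway that acts on loaded Argonaute is known to raise a strand without its partner.

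The 8 libraries held 3466318 to 5286785 miRNA counts, and levels below are CPM, counts in every 1000000 of a library's total after scaling by TMM (trimmed mean of M-values) factors. These factors were 1.01 to 1.09 in WT and 0.915 to 0.976 in the mutant, so that the strains did not overlap in them. Each strain had 1 library per hour, and p-values therefore measure the scatter of the strain difference over 4 aligned hours. A strain effect and an effect of culture or library preparation cannot be told apart, and the mutated gene is not a miRNA and could not be checked in these counts. RNA came from whole animals, in which fewer cells of a type and less RNA per cell cannot be told apart.

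The first comparison asked which strands differed between young adults of both strains. Of 237 strands with enough counts to test, 39 were higher in the mutant (16.5% of those tested) and 23 were lower (9.70%), together 26.2%, by edgeR's quasi-likelihood F-test at a Benjamini-Hochberg adjusted p of 0.01. The median log2 difference (mutant minus WT) was 0.77 among the 39, -0.66 among the 23 and 0.01 among all tested. Of the 39 higher strands 15 differed by more than 1 log2 unit, against 4 of the 23 lower strands, and each of the 62 strands kept its sign in 4 of 4 hours, as did 63 of the 175 strands not called (52.7% of all tested had 1 sign). All 4 mutant values lay above all 4 WT values for 28 of the 39 higher strands, a pattern seen in 16.9% of all tested, and all 4 lay below for 22 of the 23 lower strands, against 15.6% of all tested. As a share of raw counts, the 39 strands held 24.1% ± 1.65 in WT and 32.7% ± 1.22 in the mutant (SD, n = 4 a strain), and the 23 held 3.73% ± 0.168 and 2.33% ± 0.161. These strands were picked by the test on the same libraries, so the direction of the shares is not independent evidence. With library totals in place of TMM factors the median of all tested moved to -0.13 and the calls became 32 higher and 41 lower, so that 43.8% of calls were higher in place of 62.9%. The plot of strain difference against abundance shows the higher strands reaching further from 0.

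**Figure D1:**
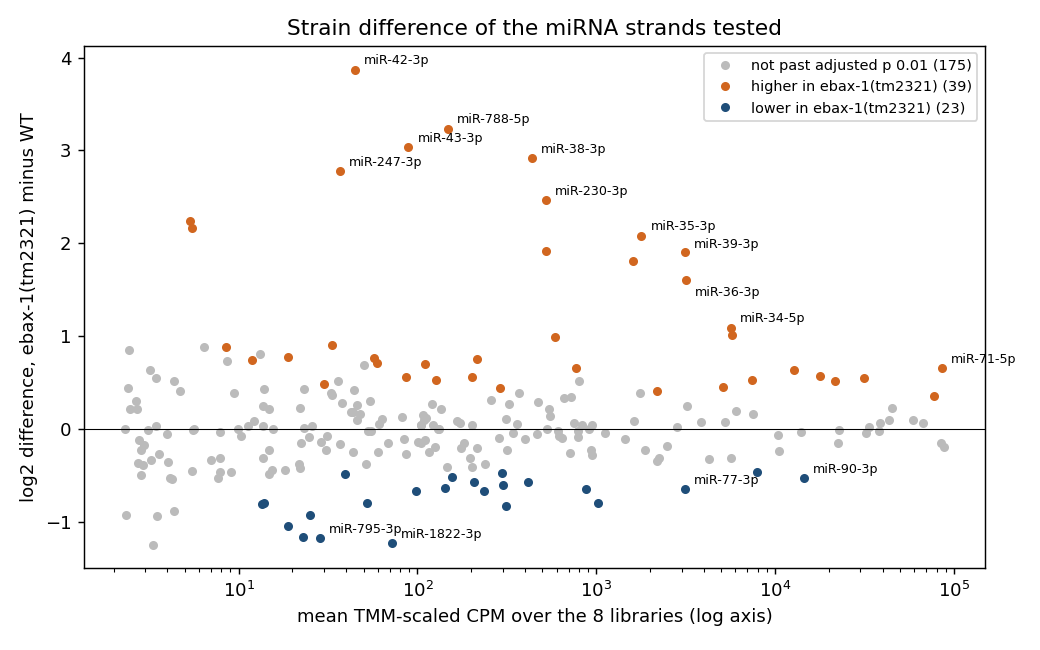
Each point is 1 of the 237 strands tested, placed by its mean TMM-scaled CPM over the 8 libraries (x, log axis) and its fitted log2 difference, ebax-1(tm2321) minus WT (y). Orange points (39) were higher, blue points (23) lower and grey points (175) did not pass adjusted p 0.01. The higher strands reached 3.87 (miR-42-3p), whereas the lower strands called reached -1.22 (miR-1822-3p).

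The largest difference belonged to miR-42-3p, a member of the miR-35 family, whose miRNAs share a seed, are abundant in embryos and are needed for embryonic development. Its CPM was 9.94, 5.89, 3.67 and 3.82 in WT at 36, 37, 38 and 39 h, and 115, 84.5, 77.0 and 59.5 in the mutant at the aligned hours. Every mutant library stood above every WT library, although the level was lower at the last hour than at the first in both strains. The fitted log2 difference was 3.87 ± 0.16 (SE), a 14.6-fold higher level in the mutant (adjusted p = 7.43e-08, edgeR). Few reads stand behind each WT value, and limma on log2 levels with 8 added gave 3.43. The hairpin lies outside genes on chromosome II in the WBcel235 annotation, next to those of miR-43 and miR-44.

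miR-43-3p, from the same cluster but with the seed of miR-2, was the third largest. Its CPM was 16.05, 18.5, 16.9 and 25.2 in WT and 157, 195, 152 and 131 in the mutant, with no overlap. The log2 difference was 3.03 ± 0.17, or 8.19-fold (adjusted p = 5.83e-07, edgeR). miR-44-3p, the third 3p strand of the cluster and far more abundant, differed by only 0.52 ± 0.08 (adjusted p = 0.000464, edgeR), from 15300.3 to 19618 CPM in WT and from 22587 to 28284 CPM in the mutant. The 3p strands of one cluster thus differed from 1.44-fold to 14.6-fold between strains. The 1.44-fold of miR-44-3p may include reads of miR-45-3p, a strand of another hairpin that moved nearly alike, so it may not describe this cluster alone. Of the 6 strands of the cluster, 5p included, 4 were higher (against 16.5% of all tested), with the call of miR-44-5p lost without aligned 36 h (0.57).

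Beyond chromosome II, 3 strands from intergenic hairpins on chromosome X stood out. For miR-788-5p the CPM was 41.8, 30.3, 22.7 and 21.0 in WT and 282, 273, 266 and 241 in the mutant. WT stayed below the mutant at each hour, and the log2 difference of 3.23 ± 0.15 corresponded to 9.42-fold (adjusted p = 1.05e-07, edgeR). For miR-247-3p, which shares its seed with miR-44, miR-45 and miR-61, the CPM was 14.01, 7.57, 6.60 and 9.20 in WT and 66.7, 72.2, 67.4 and 52.4 in the mutant. The groups did not overlap here either, with a log2 difference of 2.78 ± 0.19, or 6.85-fold (adjusted p = 2.92e-06, edgeR).

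miR-230-3p was the steadiest of these strands. Its CPM was 179, 156, 165 and 141 in WT and 872, 932, 857 and 880.0 in the mutant. The lowest mutant library was well above the highest WT library, and the log2 difference was 2.47 ± 0.10, or 5.53-fold (adjusted p = 7.43e-08, edgeR). A pair of rare strands from chromosome X passed as well, but fell below the mean of 10 CPM asked of the largest differences. miR-4807 had 1.40 to 2.26 CPM in WT and 6.92 to 11.3 in the mutant (log2 difference 2.24 ± 0.24), and miR-797-5p, which has the miR-2 seed, had 1.68 to 2.08 and 6.89 to 11.6 (2.16 ± 0.24). For these strands few reads stand behind each value. WT counts alone would not have passed the count filter, so both were tested only through the mutant libraries, where they are higher. They are still counted among the 39 higher strands, and their direction is not independent evidence. Of 4 listed strands with the miR-2 seed, 2 were higher (against 16.5% of all tested), namely miR-43-3p and miR-797-5p. The others, miR-2-3p (-0.06) and miR-250-3p (0.25), did not pass.

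**Figure D2:**
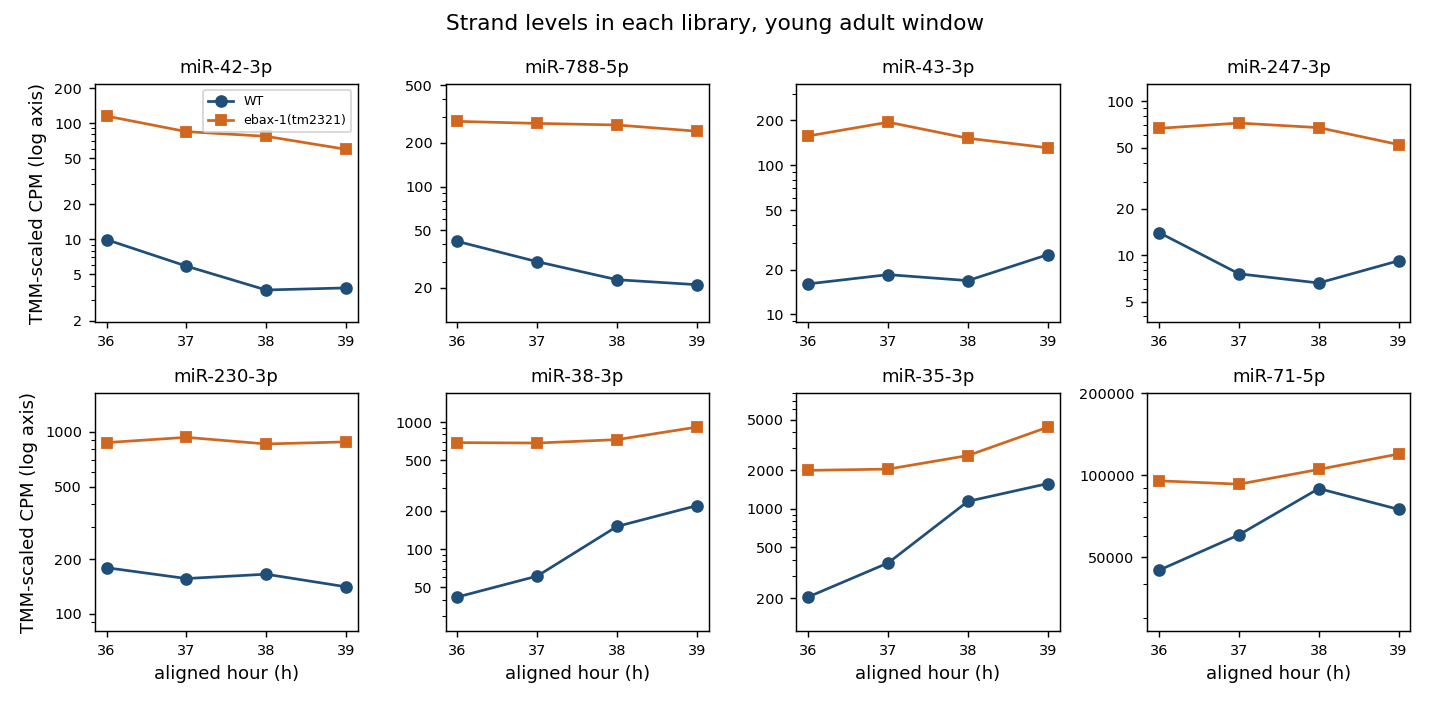
TMM-scaled CPM (y, log axis, a separate range in each panel) of 8 strands by aligned hour (x), with 1 point per library, blue circles for WT and orange squares for ebax-1(tm2321) collected 3 h later. miR-42-3p, miR-788-5p, miR-43-3p, miR-247-3p and miR-230-3p kept the strains far apart at all 4 hours. For miR-38-3p and miR-35-3p the WT line climbs towards the mutant line, and for miR-71-5p the strains come closest at aligned 38 h.

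On chromosome II an intron of Y62F5A.9 holds the hairpins of miR-35 to miR-41. The family has 8 strands on the 3p side, of which 7 were tested and 7 were higher, with a median log2 difference of 1.92 against 0.01 over all tested, and miR-41-3p, at 0.245 to 2.76 CPM in 8 libraries, was too rare. Of 12 tested strands in a list of responsive miRNAs, 11 were higher (against 16.5% of all tested), miR-788-3p being the exception. That list was drawn from the study of these samples and holds the family, so neither direction is independent evidence. miR-38-3p differed most after miR-42-3p. Its CPM was 42.0, 61.4, 151 and 219.8 in WT and 689, 683, 727 and 912 in the mutant. No mutant library reached down to a WT value, and the log2 difference was 2.92 ± 0.30, or 7.57-fold (adjusted p = 8.50e-05, edgeR).

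For miR-35-3p the CPM was 205, 377, 1144 and 1576 in WT and 2000.3, 2047, 2613 and 4353 in the mutant, again without overlap. The log2 difference was 2.08 ± 0.30 (adjusted p = 0.000464, edgeR). Differences of 1.92 ± 0.26 for miR-40-3p, 1.91 ± 0.25 for miR-39-3p, 1.82 ± 0.25 for miR-37-3p and 1.61 ± 0.24 for miR-36-3p came next (adjusted p from 0.000305 to 0.000599, edgeR). For miR-39-3p the highest WT value, 3435 CPM at 39 h, exceeded the lowest mutant value of 2891 CPM at its 39 h, and for miR-36-3p these were 3380 and 3125 CPM. The other members of the family did not overlap between strains.

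The second comparison asked whether the difference changed within the window. Of 237 strands 6 passed (2.53%), and these were miR-35-3p, miR-36-3p, miR-37-3p, miR-38-3p, miR-39-3p and miR-40-3p. Their log2 differences shrank, with slopes of -0.71 to -0.55 per hour (SE 0.0935 to 0.110, adjusted p from 8.59e-09 to 1.96e-05, edgeR's test of strain by hour). In CPM, the mutant level was 6.12 to 16.4 times that of WT at aligned 36 h, 3.69 to 11.1 times at 37 h, 1.86 to 4.82 times at 38 h and 2.10 to 4.15 times at 39 h. WT levels of the 6 strands at 39 h were 5.23 to 8.70 times those at 36 h, whereas mutant levels at 42 h were 1.32 to 2.66 times those at 39 h. miR-42-3p, of the same family but from the other cluster, had a slope of 0.19 per hour that did not pass (adjusted p = 0.997, edgeR), and those of miR-43-3p (-0.31), miR-788-5p (0.27), miR-247-3p (0.10) and miR-230-3p (0.09) did not pass either.

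**Figure D3:**
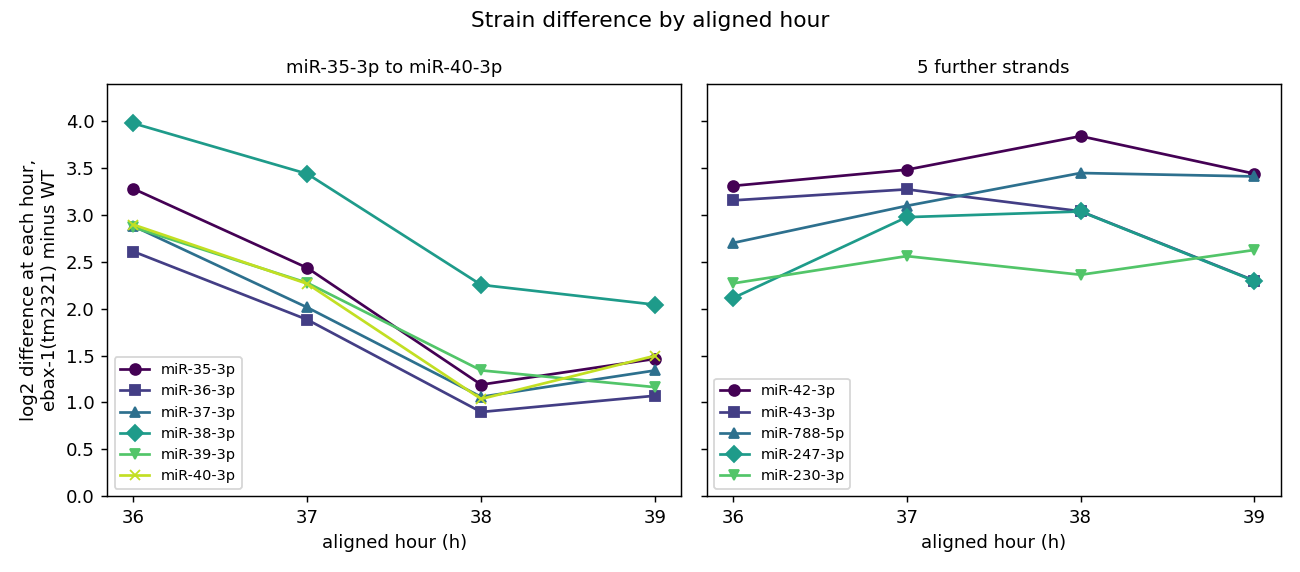
Log2 difference between strains (y, ebax-1(tm2321) minus WT, of scaled counts with 8 added, which understates rare strands) at each aligned hour (x), 1 library a strain and hour. On the left, differences of miR-35-3p to miR-40-3p ran from 2.61 to 3.98 at 36 h down to 1.07 to 2.04 at 39 h. On the right, 5 further strands stayed between 2.11 and 3.84.

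The 5p strands of the same hairpins showed another course. WT levels of 6 such strands, from miR-35-5p to miR-37-5p and from miR-39-5p to miR-41-5p, were 2.56 to 7.01 times as high at 39 h as at 36 h, and mutant levels were 2.82 to 4.34 times as high at 42 h as at 39 h. For miR-35-5p the CPM was 5.42, 13.5, 25.7 and 38.0 in WT and 9.34, 16.04, 27.3 and 40.5 in the mutant. These values overlapped, and the log2 difference was 0.23 ± 0.15 (adjusted p = 0.269, edgeR). Of 7 tested 5p strands of the family, 3 passed as higher (against 16.5% of all tested). These were miR-41-5p (0.76), miR-37-5p (0.70) and miR-39-5p (0.57), each lost without aligned 36 h (0.61, 0.59 and 0.49) and the last also without 37 h (0.45). The list had a median of 0.44.

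The size of these differences depended on the hours paired. Against WT at 39 to 42 h, with no shift, the same mutant libraries gave -0.041 for miR-35-3p, -0.38 for miR-36-3p, -0.23 for miR-37-3p, -0.45 for miR-39-3p and -0.023 for miR-40-3p. Of these, miR-36-3p and miR-39-3p passed as lower in the mutant (adjusted p = 0.00929 and 0.00279, edgeR). The values were 0.98 for miR-38-3p and 3.95 for miR-42-3p. At a 2 h shift miR-35-3p, miR-36-3p, miR-37-3p, miR-39-3p and miR-40-3p were 0.77 to 1.18 and did not pass, and with 4 h they were 2.43 to 2.99. Without the hour as a factor they were 1.33 to 1.74 and did not pass either. The changing difference passed for 0 strands with a shift of 2 h, 27 with 4 h and 7 with none, of which only miR-38-3p was among the 6. miR-42-3p, miR-43-3p, miR-788-5p, miR-247-3p, miR-230-3p and miR-38-3p passed under all 14 alternatives run on the strain difference, with 10 further higher strands. Whether the strains matched in stage at each aligned hour was not tested in these counts.

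As a share of all miRNA counts, the 8 strands of the miR-35 family on the 3p side held 0.156, 0.272, 0.703 and 1.15% in WT and 1.01, 1.16, 1.49 and 2.47% in the mutant. The means were 0.571% ± 0.455 and 1.53% ± 0.654 (SD, n = 4 a strain), and the last WT library lay between the first and second mutant libraries. The difference of 0.962 percentage points did not pass an exact two-sided permutation test over the 8 libraries (p = 0.0571, where 0.0286 is the smallest p possible). This test ignored the pairing by aligned hour, although the share rose with the hour in both strains. At each aligned hour the mutant share was the higher one. Without the shift the difference was -0.491 points (exact permutation p = 0.429).

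The third comparison set both strands of a hairpin against each other. The guide was taken as the strand with the higher mean in WT at 25 to 35 h, hours outside the window. The study instead named guides by mean level over a longer time course, and modelled miR-788-5p, miR-42-3p, miR-49-3p, miR-241-5p and miR-790-5p as guides. All of these count as passengers here, where the word means only the strand with the lower WT level at 25 to 35 h. Of 85 hairpins with both strands tested, the guide to passenger ratio differed between strains in 14 (16.5%) by limma at adjusted p 0.01, with 33 at an unadjusted p under 0.05. In 8 the ratio was higher in the mutant, for miR-43, miR-35, miR-40, miR-39, miR-36, miR-34, miR-71 and miR-37. In 6 it was lower, for miR-788, miR-42, miR-230, miR-77, miR-90 and miR-5592. The 14 became 9 without aligned 37 h.

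In 3 hairpins, miR-788, miR-42 and miR-230, the more abundant strand was not the same in both strains at any of the 4 hours. The log2 ratio of miR-788-3p to miR-788-5p was 2.53, 2.99, 3.23 and 3.05 in WT and -0.33, -0.26, -0.61 and -0.47 in the mutant. It thus favoured 3p in every WT library and 5p in every mutant library, a change of -3.37 ± 0.19 (adjusted p = 6.78e-06, limma). miR-788-3p itself, at 187 to 253 CPM in WT and 173 to 229 CPM in the mutant, did not pass (log2 difference -0.20, adjusted p = 0.117, edgeR).

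For miR-230 the ratio of 5p to 3p was 0.86, 0.91, 1.11 and 0.48 on the log2 scale in WT and -1.25, -1.85, -1.88 and -1.87 in the mutant (change -2.55 ± 0.17, adjusted p = 1.002e-05, limma). For miR-42 the ratio of 5p to 3p was 0.18, 1.44, 1.98 and 2.46 in WT and -2.36, -1.58, -1.61 and -0.78 in the mutant (change -3.10 ± 0.22, adjusted p = 1.002e-05, limma). In both hairpins the 5p strand, which counts as the guide by its WT level, did not pass (log2 difference -0.10 for miR-230-5p, adjusted p = 0.646, and 0.44 for miR-42-5p, adjusted p = 0.0384, edgeR), so that the ratio moved with the 3p strand. miR-43-3p likewise stood alone, since miR-43-5p, at 7.68 to 18.8 CPM in WT and 9.98 to 15.7 CPM in the mutant, gave 0.09 (adjusted p = 0.772, edgeR).

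**Figure D4:**
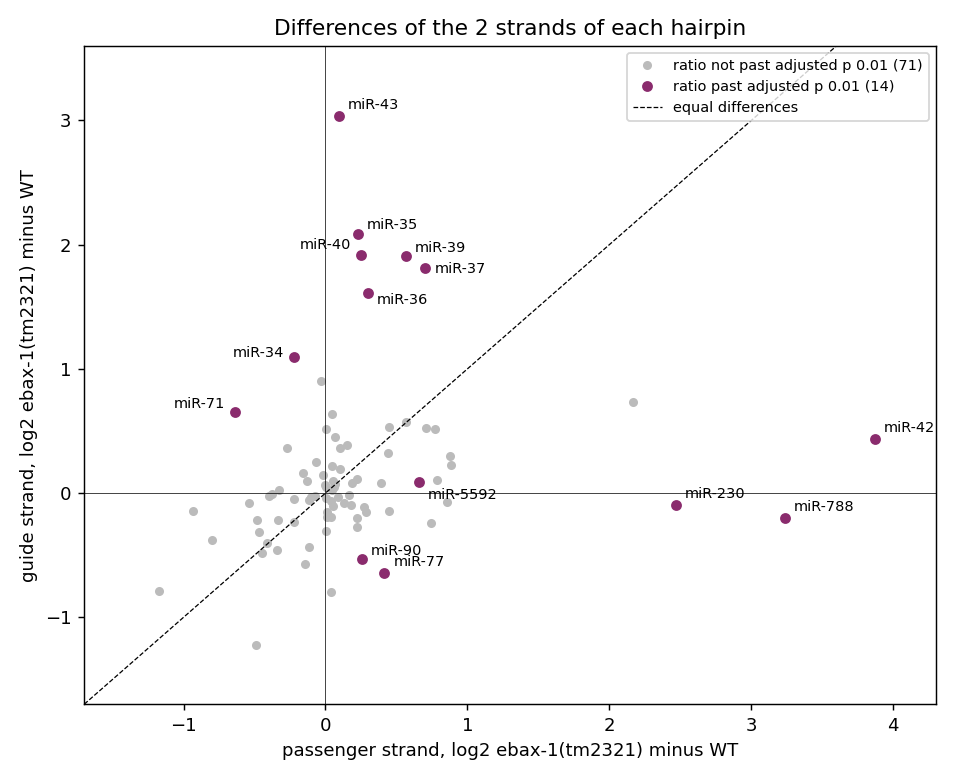
Each point is 1 of 85 hairpins, placed by the fitted log2 difference (ebax-1(tm2321) minus WT) of its passenger (x) and of its guide (y). Purple points (14) had a guide to passenger ratio that differed at adjusted p 0.01, grey points (71) did not, and on the dashed line both strands differ equally. miR-43, miR-35, miR-36, miR-37, miR-39 and miR-40 extend along the guide axis, and miR-788, miR-42 and miR-230 extend along the passenger axis to between 2.47 and 3.87. Guides are named by WT level before the window, and the study modelled miR-788-5p, miR-42-3p, miR-49-3p, miR-241-5p and miR-790-5p, passengers here, as guides.

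Both strands passed in opposite directions in 2 hairpins. The miR-71 hairpin sits in a ppfr-1 intron, and its guide is known for promoting longevity. miR-71-5p had 44819, 60449, 89405 and 74971 CPM in WT and 95456, 92808, 105149 and 119810.0 CPM in the mutant. Its passenger miR-71-3p had 1048, 1144, 1092 and 992 CPM in WT and 646, 655, 730.3 and 714 CPM in the mutant. Neither strand overlapped between strains. The guide was 0.65 ± 0.12 higher (adjusted p = 0.00178, edgeR), which came to 0.08 without the shift, 0.40 with 2 h and 1.03 with 4 h, none of them past the threshold, while the passenger was -0.64 ± 0.09 lower (adjusted p = 0.000526, edgeR) and passed in every alternative.

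The other such hairpin was miR-77. Its guide miR-77-3p was lower at -0.64 ± 0.08 (3178 to 4782 CPM in WT and 2021 to 3004 CPM in the mutant), and its passenger miR-77-5p was higher at 0.42 ± 0.10 (1681 to 2175 CPM and 2408 to 2562 CPM). The call of miR-77-5p was kept in 6 of 14 alternatives and was lost without aligned 36 h (0.36) or 37 h (0.38), with library totals or limma (0.28 in both), with no shift (0.29) or 2 h (0.38), without the hour as a factor (0.41) and in a fit over 30 libraries (0.40). The call of miR-77-3p was lost only without the hour as a factor (-0.64). Of the 85 hairpins, both strands were higher in 5 and both lower in 1, miR-795. The guide alone was higher in 9 and lower in 6. The passenger alone was higher in 9, among them miR-788-5p, miR-42-3p and miR-49-3p, which the study modelled as guides, and lower in 2.

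Among further higher strands, miR-34-5p, the worm member of the p53-linked miR-34 family, had 3220.1, 3585, 3689 and 3992 CPM in WT and 7717, 7492, 7989 and 7641 CPM in the mutant. The log2 difference was 1.09 ± 0.08 (adjusted p = 8.09e-06, edgeR), without overlap, while miR-34-3p gave -0.22 and did not pass. miR-244-5p was higher by 1.02 ± 0.11, with 2483 to 4777 CPM in WT and 6418 to 8959 CPM in the mutant. miR-253-3p, from an intron of F44E7.5, was higher by 0.997 ± 0.11, with 337 to 432 CPM and 652 to 919 CPM.

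Smaller differences were found for abundant guides. miR-61-3p was higher by 0.64 ± 0.09 with 8998 to 10891 CPM in WT and 14612 to 16913 CPM in the mutant, and miR-45-3p by 0.53 ± 0.08. With miR-44-3p and miR-247-3p this made 4 of 4 tested strands of one seed family (median 0.59 against 0.01 over all tested), but miR-44-3p and miR-45-3p moved nearly alike at each hour and may share reads, since reads with several matching positions were kept. miR-61-5p, the passenger, gave 0.04 (adjusted p = 0.846, edgeR). miR-235-3p, an intergenic miRNA of chromosome I related to mammalian miR-92, had 30824, 26813, 26024 and 18976 CPM in WT and 41653, 39002, 35808 and 32130.3 CPM in the mutant, above every WT library (log2 difference 0.55 ± 0.08, adjusted p = 0.000532, edgeR).

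miR-237-5p, of the lin-4 family, was higher by 0.57 ± 0.09 (11609 to 15586 CPM in WT and 18759 to 25295 CPM in the mutant). lin-4-5p itself, which times larval cell fates, was at 0.30 and did not pass (adjusted p = 0.0286, edgeR), although it passed in DESeq2 (0.28). Its passenger lin-4-3p, at 3.36 to 6.10 CPM in WT and 6.11 to 12.8 CPM in the mutant, was at 0.88 (adjusted p = 0.0260, edgeR) and passed when the filter was left out (0.87). Further rare to moderate strands were also higher, among them miR-67-5p (0.90), miR-786-5p (0.78), miR-44-5p (0.71), miR-237-3p (0.57) and let-7-3p (0.89), at means of 8.49 to 86.0 CPM. Without aligned 36 h the calls of miR-67-5p (0.77), miR-44-5p (0.57), miR-237-3p (0.53) and let-7-3p (0.90) were lost. Without aligned 37 h that of let-7-3p (0.77) and without 38 h that of miR-237-3p (0.57) were lost too.

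The lower strands were of smaller size. miR-1822-3p, encoded within ZK84.2, had 113, 97.3, 78.3 and 116 CPM in WT and 44.5, 51.9, 39.7 and 36.4 CPM in the mutant. All mutant values lay below all WT values, and the log2 difference was -1.22 ± 0.14 (adjusted p = 0.000121, edgeR), or 2.34-fold lower. miR-799 (-1.16 ± 0.18, from 18.8 to 40.9 CPM in WT and from 12.9 to 15.8 CPM in the mutant) and miR-8196a-3p (-1.04 ± 0.18, 20.5 to 29.8 CPM and 9.37 to 15.3 CPM) were rarer.

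Both strands of miR-795 were lower, which the ratio test did not separate (0.33 ± 0.18, adjusted p = 0.211, limma). miR-795-5p had 1419.9, 1398, 1349 and 1022 CPM in WT and 843, 714, 729 and 699 CPM in the mutant (log2 difference -0.79 ± 0.10), and miR-795-3p had 35.8 to 46.3 CPM and 13.5 to 25.3 CPM (-1.17 ± 0.18). miR-793 and miR-794-5p, whose 5′ ends resemble that of let-7 as does that of miR-795-5p, were lower by comparable amounts. miR-793 had 335 to 437 CPM in WT and 194 to 272 CPM in the mutant (-0.82 ± 0.10), and miR-794-5p 109.8 to 133 CPM and 63.9 to 86.7 CPM (-0.66 ± 0.11), a call lost without aligned 38 h (-0.59). All 3 listed let-7-like strands were therefore lower (median -0.79 against 0.01 over all tested). Of the heterochronic let-7 family 0 of 4 passed by edgeR (median 0.02, 1 at an unadjusted p under 0.05, 1 by DESeq2 and 0 by limma), and let-7-5p, at 33793 to 48130.0 CPM in WT and 41759 to 55710 CPM in the mutant, was at 0.23 (adjusted p = 0.0288, edgeR). let-7-5p passed in DESeq2 (0.21) and with no shift (0.66) or 2 h (0.40).

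**Figure D5:**
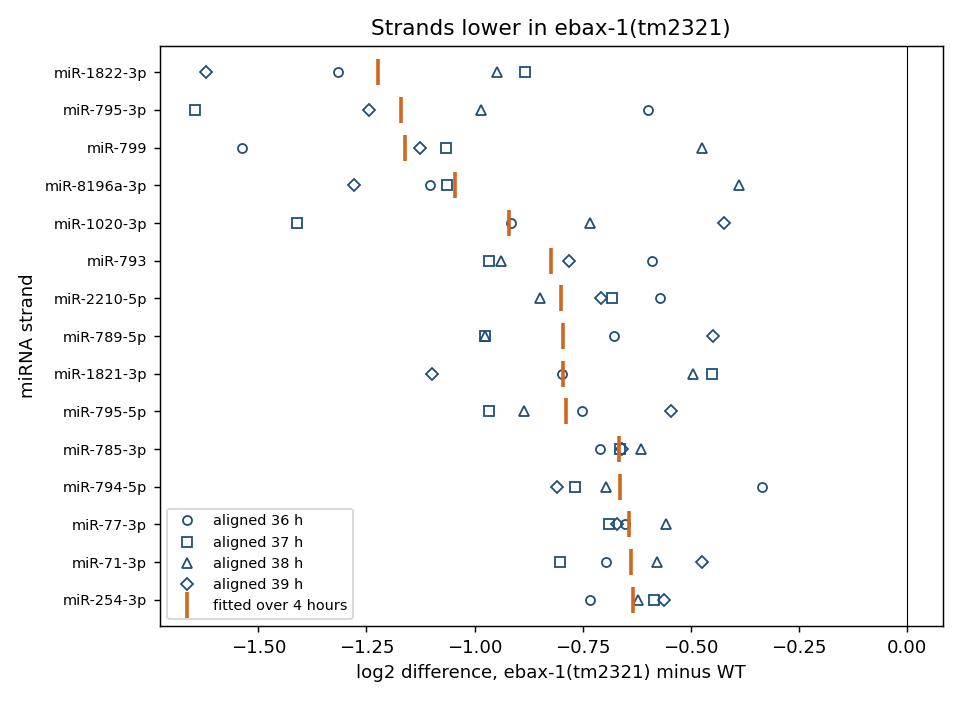
Log2 difference (x, ebax-1(tm2321) minus WT) of the 15 strands with the largest negative differences (y). Open symbols give each of the 4 aligned hours, from scaled counts with 8 added, and the orange bar the value fitted to the counts. The naming rule fixed the sign at each hour, and miR-785-3p, miR-77-3p and miR-254-3p show the tightest hours.

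miR-785-3p was the most even of the lower strands, with 280, 294, 293 and 286 CPM in WT and 170.3, 185, 191 and 180.5 CPM in the mutant (log2 difference -0.67 ± 0.09, adjusted p = 0.000314, edgeR). miR-254-3p, from an intron of gcy-9, was lower by a similar amount (-0.63 ± 0.09). miR-1020-3p, listed as a mirtron, a hairpin freed by splicing, was at -0.92 ± 0.17, and the other tested strands so listed, miR-62 (-0.31) and miR-1018 (0.81), did not pass by edgeR. The WBcel235 annotation placed miR-1018 outside protein-coding genes, with no host intron. miR-62 passed with library totals (-0.44), limma (-0.44) or DESeq2 (-0.32), and miR-1018 in DESeq2 (0.80), without the filter (0.80), with no shift (1.21), in the fit over 30 libraries (0.79) and without aligned 37 h (0.97) or 38 h (1.06). miR-789-5p (-0.80 ± 0.13) went down while miR-789-2-5p, the strand of a related copy, was higher (0.53 ± 0.10), and these may share reads. miR-2210-5p (-0.80) and miR-1821-3p (-0.79), at means of 13.5 and 13.8 CPM, completed the 15, with the first call lost without aligned 38 h (-0.68) and the second without 36, 38 or 39 h (-0.82 to -0.59).

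Many abundant families did not pass by edgeR in either direction. These were the miR-51 family, which acts in embryos (0 of 6, median -0.00021), the miR-58 family of bantam relatives (0 of 4, median -0.17), miR-75 and miR-79 (0 of 2, median -0.15) and the miR-238 family (0 of 3, median 0.52). At an unadjusted p under 0.05 these lists had 0, 1, 0 and 2 strands, and DESeq2 called 0, 1, 0 and 0. The most abundant members were at 0.08 (miR-52-5p), -0.19 (miR-82-3p), -0.09 (miR-79-3p) and 0.02 (miR-238-3p). With library totals or limma, 3 of the 4 tested miR-58 relatives were lower, among them miR-82-3p at -0.33. In the miR-238 family 2 of 3 were higher by edgeR without the filter, and 2 of 3 with no shift. miR-239a-3p, the other strand of a member of that family, was higher in the main test (0.77) and was kept in 12 of 14 alternatives. In the miR-64 cluster miR-229-5p alone of 4 passed, at -0.45 ± 0.09 (-0.41 and not past the threshold without aligned 38 h), in the miR-72 family miR-72-5p alone of 3, at 0.36 (not past it without 38 h, at 0.46, with library totals or limma, at 0.23, or with a 4 h shift, at 0.36), and of miR-49 and miR-83 miR-49-3p, at 0.74, which was kept in 4 of 14 alternatives and lost without 36, 37 or 38 h (0.60 to 0.85).

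Strands used as tissue markers gave mostly small values. miR-1-3p of muscle was at 0.10 (53964 to 59079 CPM in WT and 56796 to 67525 CPM in the mutant, adjusted p = 0.339, edgeR). Of 5 neuronal strands 0 passed by edgeR (2 at an unadjusted p under 0.05, 1 by DESeq2, 0 by limma), with miR-124-3p at 0.43 (adjusted p = 0.0144) and past the threshold in DESeq2 (0.41) and without the filter (0.42). miR-60-3p of the intestine was lower (-0.57 ± 0.11, 231 to 282 CPM in WT and 139 to 195 CPM in the mutant), with the call lost without aligned 36 h (-0.51) or 39 h (-0.44), and miR-228-5p of glia and hypodermis was higher (0.45 ± 0.10, 3199 to 4825 CPM and 5226 to 6838 CPM), lost without 36 h (0.43), with library totals or limma (0.32 in both), with a 4 h shift (0.31) and without the hour as a factor (0.44). Of 9 strands listed for the gonad or for a rise from the third larval stage, miR-786-5p alone passed, where 26.2% of all tested did. The part of tissue composition in the other results was not tested. miR-38-5p, miR-235-5p, miR-247-5p and miR-253-5p, partners of strands described above, were too rare to test, at 3.82 CPM or less in each library.

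By position in the WBcel235 annotation, 18 of the 39 higher strands came from chromosome II, where 43 strands were tested (41.9% higher, against 16.5% over all chromosomes), and 15 of these 18 belonged to the miR-35 to miR-45 hairpins. Chromosome X gave 11 higher and 6 lower strands of 69 tested (15.9% and 8.70%), close to the 16.5% and 9.70% over all tested, and 3 of the 39 higher strands were not placed.

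A last test asked whether the strain difference in this window differed from that at aligned 25 to 35 h, over 30 libraries. Of 241 strands 0 passed at adjusted p 0.01 by edgeR (0%), with 23 at an unadjusted p under 0.05, and limma gave 0 as well. The smallest adjusted p, 0.0236, was shared by miR-788-5p (2.66 larger in this window, from 0.56 at the earlier hours), miR-247-3p (2.22 larger, from 0.55), miR-42-3p (1.86 larger, from 1.998) and miR-39-3p (-1.13, from 3.03). The first 3 passed when the filter on low counts was left out (adjusted p = 0.00908, 0.00908 and 0.00304, edgeR), and miR-39-3p passed without aligned 36 h (-1.55, adjusted p = 0.00587, edgeR).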

How the data were processed

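Small RNA reads of 36 C. elegans libraries were trimmed by the authors with QuasR, aligned to ce10 with Bowtie (versions not given in the sources used here), and counted at annotated 5′ ends of mature miRNAs, keeping reads with several matching positions. The deposited table holds these read counts, not normalized. The deposited log2 table holds counts divided by the library total, multiplied by the mean total, with 8 added, and recomputed values differed by at most 0.0005. It served for checks only. Near-identical strands can share reads. Reads carried no molecular identifiers, so errors cover scatter between libraries.

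Counts of the 8 libraries were tested with edgeR 4.0.16 in R 4.3.3 (quasi-likelihood F-test, aligned hour as a factor plus strain, 3 residual degrees of freedom, TMM, filterByExpr with a minimum count of 10). SE is the fitted difference divided by the square root of F. 200 of 437 strands, 64 of them without counts, were not tested. A strain by hour term tested change within the window, and a strain by window term over 30 libraries the difference from earlier hours. Log2 ratios of TMM-scaled counts (8 added) were tested with limma 3.58.1. The study's methods describe splines for another time course, and here the hour was a factor because the window holds 4 hours. The labels name no separate cultures, and libraries were paired by aligned hour, not by replicate number. Tests were checked on simulated data.

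Members, lists and tests were chosen with earlier results of these data known. Named strands are the 15 largest differences in each direction among those past adjusted p 0.01 with 1 sign in 4 of 4 hours and a mean of at least 10 CPM, both strands of miR-35 to miR-44, miR-61, miR-71, miR-230, miR-235, miR-247, miR-253, miR-788, miR-4807, let-7, lin-4 and miR-237, and up to 4 members of each list by size, or the most abundant where none passed. Others were named after their values were seen. Of 247 hairpins, 210 were placed on WBcel235 by symbol, for names, chromosomes and host genes. Sequences were not used here. Alternatives were library totals, DESeq2 1.42.0 size factors and its Wald test, no filter, limma, no hour factor, shifts of 0, 2 and 4 h, the 30-library fit, a threshold of 0.05 and leaving out each aligned hour.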

Additional observations from a re-analysis of the deposited data

Results flagged for a closer look

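In 110 groups of 4 libraries (each named strand within each strain, library totals and the share of the miR-35 family), 5 had a library far from the others, about the 5 in 100 that chance gives. Values are log2 of TMM-scaled counts with 8 added. In WT at 39 h miR-237-5p stood at 15.63 (the others 16.02 to 16.05) and miR-795-5p at 12.12 (12.52 to 12.60). miR-2210-5p was at 6.28 in WT at 37 h (6.39 to 6.40) and miR-1821-3p at 6.49 in WT at 36 h (6.35 to 6.37). In the mutant at 42 h miR-44-5p was at 8.71 (8.20 to 8.26).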

How the results depend on the processing

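Of 39 higher and 23 lower strands, 16 and 10 kept their call in all 14 alternatives with another fit, shift or set of hours. The higher count became 20 without the hour factor and stayed within 1.5 times elsewhere. The lower count became 41 with library totals, 41 with limma and 37 at adjusted p 0.05. Leaving out 1 aligned hour gave 27 to 41 higher and 16 to 23 lower strands, and 16 of 52 named calls were lost in at least 1 of these fits. The count of changing differences was 0 with a 2 h and 27 with a 4 h shift (chosen after seeing the data) and 6 or 7 otherwise. Differences from the earlier hours numbered 3 without the filter, 8 without the shift, 4 at adjusted p 0.05, and 0 to 1 without 1 hour. Ratio calls were 24 at adjusted p 0.05 and 9 to 19 without 1 hour. The family share differed by 1.06 points with TMM-scaled totals (exact permutation p = 0.0286), by 0.845 to 1.02 without 1 hour and by -0.491 without the shift.

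Without the shift, differences turned to -0.041 (miR-35-3p), -0.38 (miR-36-3p), -0.23 (miR-37-3p), -0.45 (miR-39-3p), -0.023 (miR-40-3p), -1.13 (miR-35-5p), -0.70 (miR-36-5p), -0.44 (miR-37-5p), -0.95 (miR-39-5p), -0.89 (miR-40-5p) and -0.53 (miR-41-5p), and with a 2 h shift miR-39-5p turned to -0.015. Without the shift, miR-36-3p, miR-39-3p, miR-35-5p, miR-36-5p, miR-39-5p and miR-40-5p passed as lower in the mutant by edgeR. The cause of these turns was not tested. Calls of miR-71-5p (0.62), miR-235-3p (0.53) and miR-77-3p (-0.64) were lost without the hour factor, and those of miR-71-5p (0.64), miR-235-3p (0.53), miR-237-3p (0.55), let-7-3p (0.85) and miR-60-3p (-0.59) in the 30-library fit. The aligned hour in the fit pairs the libraries, and replicate numbers are names only. 4 hours with 1 library a strain limit the precision of rare strands, among them miR-4807 and miR-797-5p.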
